A study of Homo sapiens with 12 samples.

Results

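Minor spliceosome proteins and *TMEM41B* were described in human neurons made from stem cells. The 9 genes were chosen by name: 8 encode proteins of the U11/U12 small nuclear ribonucleoprotein (snRNP), and *TMEM41B* carries a U12-type intron. Each name matched exactly 1 row among the 16406 genes of the iMN table and 1 row among the 19016 genes of the i3N table. The iMNs were motor neurons derived from induced pluripotent stem cells, sorted by a fluorescent reporter driven by the HB9 promoter. The i3Ns were excitatory neurons, labelled cortical neurons, made from H1 embryonic stem cells by inducible expression of *NGN2*, a proneural transcription factor. In each cell type, 3 SCR libraries came from cells carrying Scramble shRNA and 3 *SMN*-KD libraries came from cells carrying SMN shRNA, both delivered by lentivirus. The 12 libraries were total RNA depleted of ribosomal RNA, and 1 stem cell line stood behind each cell type.

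The study compared *SMN*-KD with SCR to ask what loss of SMN, the assembly factor of spliceosomal snRNPs, does to neuronal RNA. The only measured values used here are the authors' mean normalized counts, 1 per gene and table. A normalized count is an estimated read count divided by a factor that puts the libraries of a table on one scale. The mean runs over all 6 libraries, SCR and *SMN*-KD together. These means cannot separate the knockdown from its control, and the knockdown of *SMN1* and *SMN2* could not be checked on them. No value per library was used, so the spread between replicates and the depth are unknown, no test was possible and no value below has an SD. The levels are therefore a description of how much RNA of each gene these neurons held.

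The labels were set beside markers of each cell type, since cell type, stem cell line and differentiation protocol cannot be told apart in this design. Of 5 markers shared by all neurons, *TUBB3*, neuronal tubulin, had a mean normalized count of 58362 in iMNs and 70054 in i3Ns. *STMN2* was alike, with 81082.5 in iMNs and 84088.5 in i3Ns. Lower in i3Ns were *MAP2* (112758 in iMNs and 82776 in i3Ns), *SYP* (26533 and 17671) and *RBFOX3* (1886 and 1351). *RBFOX3* was the least high of them, with 67.8% of genes below it in iMNs and 64.8% in i3Ns. All 7 motor neuron markers had a value in both tables. *MNX1*, the gene of the HB9 promoter used for sorting, had a mean of 429.7 in iMNs and 2279 in i3Ns, and *ISL1* had 1663 in iMNs and 14299 in i3Ns. *SLC5A7*, the choline transporter of cholinergic neurons, went the other way with 8460 in iMNs and 2472 in i3Ns. So did *SLC18A3*, another cholinergic transporter, with 3115 in iMNs and 1865 in i3Ns. The glutamate transporter genes *SLC17A6* and *SLC17A7* had 593.3 and 50.1 in iMNs, against 11237 and 6490 in i3Ns. Another glutamate transporter gene, *SLC17A8*, had 1073 in iMNs and 7.39 in i3Ns, and *CHAT*, the enzyme that makes acetylcholine, was alike with 532.9 and 527.1. The motor neuron transcription factors were thus higher in the table labelled cortical neuron, against the labels. The transporters *SLC5A7*, *SLC18A3*, *SLC17A6* and *SLC17A7* went with the labels, and *SLC17A8* went against them. Summed means of the 4 mesenchymal markers were 2119 in iMNs and 5698 in i3Ns. The largest part came from *COL1A1*, with 1321 and 4228, and *COL1A2* alone was lower in i3Ns, with 686.4 and 610.7. Summed means of the 3 pluripotency markers were 214.7 in iMNs and 4238 in i3Ns, nearly all from *LIN28A*. Oligodendrocyte markers summed to 407.5 in iMNs and 1507 in i3Ns, with *OLIG2* at 20.7 and 362.3 and *MBP* at 329.2 and 949.2. Of the astrocyte markers, 0 of 3 had a row in iMNs and 1 of 3 in i3Ns. The part of other cells in the levels of the members was not tested, and in bulk RNA a smaller share of a cell type and less RNA per cell cannot be told apart.

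Most introns are removed by the major spliceosome, built on the U1 and U2 snRNPs. A small class, the U12-type introns, is removed by the minor spliceosome, in which the U11/U12 di-snRNP recognises the 5′ splice site and the branch site together. U12-type introns are marked by a long, nearly fixed 5′ splice site, and their splicing is known to be sensitive to low SMN. *TMEM41B*, also called stasimon, encodes a lipid scramblase of the endoplasmic reticulum and is a known target of this pathway in models of spinal muscular atrophy. Of the genes of the U11/U12 proteins studied here, only *RNPC3* was found to share a U12-type 5′ splice site with *TMEM41B*. This shared feature thus does not tie the whole group together. Only exact matches in introns of reference transcripts were searched, so U12-type introns with other 5′ splice sites would be missed. The matching sequences are shown first.

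Only 2 of the 9 genes hold a U12-type 5′ splice site, ATATCCTT or GTATCCTT at the start of an intron, among the 59 introns of their reference transcripts. *TMEM41B* (ENSG00000166471, chromosome 11 from 9280654 to 9314636, minus strand, GRCh38) holds it in intron 3 of 6, which is 6723 bases long and interrupts the coding sequence. *RNPC3* (ENSG00000185946, chromosome 1 from 103525691 to 103555239, plus strand) holds it in intron 13 of 14, which is 647 bases long and also lies in the coding part. *RNPC3* is thus both a protein of the minor spliceosome and a gene that holds an intron of its class. Both introns also carry a match to the U12 branch site near their 3′ end, searched in the last 40 bases on the sense strand. A branch match was the motif CCTTAAC, the form ending in T instead, which is CCTTAAT, or either form with G before the last A, which gives CCTTGAC and also CCTTGAT. The match ends 14 bases before the end of the intron in *TMEM41B* and 13 bases before it in *RNPC3*. The ends of both introns are printed because they are what the U11/U12 di-snRNP reads, with the matched 5′ splice site and branch site in capitals, 5′ to 3′ on the strand of the gene.
*TMEM41B* intron 3, 5′ end, chr11:9295239-9295258: GTATCCTTttaactgaaaaa
*TMEM41B* intron 3, 3′ end, chr11:9288536-9288565: tattctaatCCTTAACttaaaagttaccag
*RNPC3* intron 13, 5′ end, chr1:103551074-103551093: GTATCCTTtaaatccatcta
*RNPC3* intron 13, 3′ end, chr1:103551691-103551720: atgaaggaaaCCTTAATtttaaattattag
Both introns thus begin with the same 8 letters of the motif, and the branch match is CCTTAAC in *TMEM41B* and CCTTAAT in *RNPC3*.

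Across the genome, 556 of 182029 introns of reference transcripts (0.305%) started with the motif, 167 with A and 389 with G as the first base. They fell in 520 of 18037 genes (2.88%). A branch match stood in the last 40 bases of 57.2% of these introns and of 1.10% of all other introns. The introns of *TMEM41B* and *RNPC3* are of the more frequent kind that starts with G, and both have the branch match.

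The core of the motif, TATCCTT, was also searched in the whole gene bodies on the sense strand, because tandem copies of it are known as a splicing enhancer bound by U11, described in *SNRNP48* and *RNPC3*. *SNRNP48* (ENSG00000168566, chromosome 6 from 7590198 to 7611967, plus strand) and *RNPC3* each held 1 pair of copies whose starts lay at most 20 bases apart, and the other 7 members held 0. Such a pair occurred in 489 of 20033 protein-coding genes (2.44%), and in 32 of the 3647 genes between 20000 and 40000 bases long (0.877%), the range that holds both members. The pairs are printed with each copy and the base before it in capitals.
*SNRNP48*, chr6:7599736-7599761, plus strand: GTATCCTTtttgcaaatgATATCCTT
*RNPC3*, chr1:103553318-103553340, plus strand: GTATCCTTtcttgtcGTATCCTT
The starts are 18 bases apart in *SNRNP48* and 15 bases apart in *RNPC3*. The pair of *SNRNP48* lies in intron 4 of the reference transcript and inside an exon of 1 of its 3 annotated transcripts. The pair of *RNPC3* lies in intron 14 of the reference transcript and inside an exon of 2 of its 9 annotated transcripts. A match to these letters is a description and not a site of binding.

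**Figure D1:**
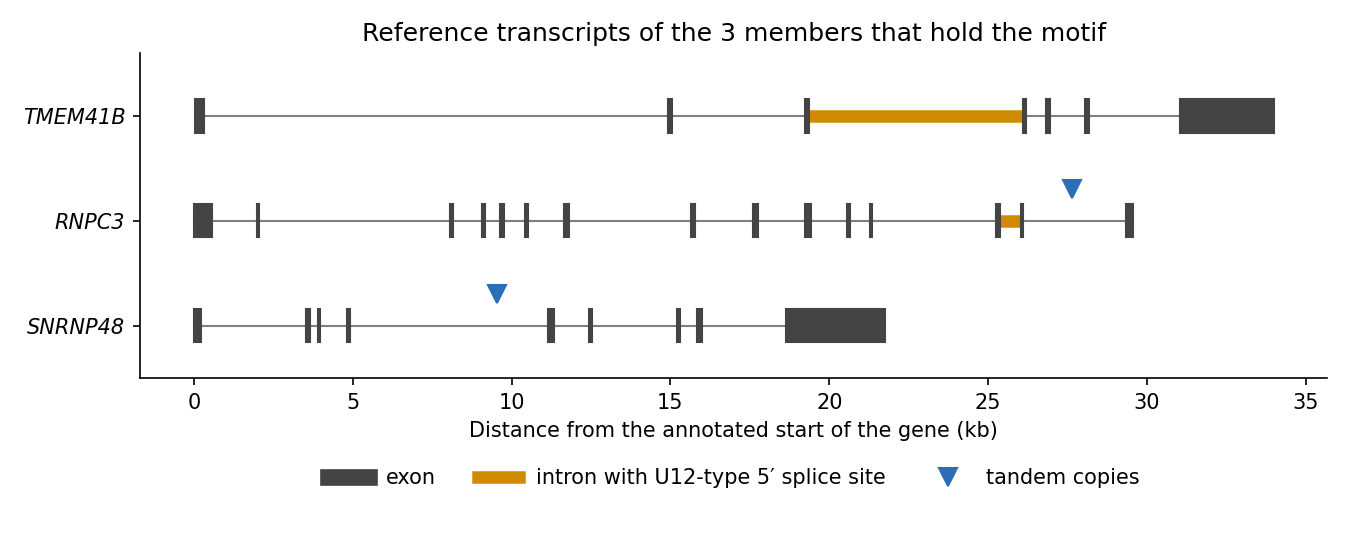
Reference transcripts of *TMEM41B*, *RNPC3* and *SNRNP48* drawn to scale, with distance from the annotated gene start in kb on the x axis. Boxes are exons, thick orange segments are introns with a U12-type 5′ splice site and triangles are the tandem copies. *TMEM41B* and *RNPC3* each have 1 such intron, and *RNPC3* alone of the 3 has both features.

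*TMEM41B* had the highest mean normalized count of the 9 genes in both tables, 2030 in iMNs and 2351 in i3Ns. Of all genes of the table, 69.4% had a lower mean in iMNs and 75.5% in i3Ns. Per kb of the reference transcript, the scale on which different genes can be compared, its level was 534.5 in iMNs and 619.0 in i3Ns. This put it second of the 9 in iMNs and first in i3Ns. Among the 480 genes with a U12-type intron in the iMN table, 61.5% had a lower level per kb than *TMEM41B*, and 63.5% did among the 499 such genes of the i3N table. Per kb, among all genes with a reference transcript, 63.7% lay below *TMEM41B* in iMNs and 69.1% in i3Ns. It was thus above the middle of the genes ranked on each scale, and above the middle of the genes with an intron that matches the motif. Of its relatives, *VMP1*, a scramblase of the same domain family, had 1085 per kb in iMNs and 840.0 in i3Ns. *TMEM41A*, its paralog, had 202.9 per kb in iMNs and 279.9 in i3Ns.

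The U11/U12 proteins had lower mean normalized counts, a scale that favours long RNAs. The median of the 8 mean normalized counts was 536.4 in iMNs and 500.9 in i3Ns, against medians over all genes of 875.5 and 576.8. By count, 7 of the 8 had 37.6% to 47.2% of genes below them in iMNs, and *PDCD7* was the exception with 61.3%. In i3Ns, *PDCD7*, *RNPC3* and *SNRNP48* were above the middle of the table, and the other 5 had 42.4% to 48.1% of genes below them. The median percentile by count was 40.9 in iMNs and 47.9 in i3Ns. The i3N table reaches lower means, and among genes with a mean of at least 10 the medians were 39.3 and 38.2, which turns their order. *SNRNP48* then lay below the middle of the i3N table, with 49.2% of genes below it, and *PDCD7* had 50.7%. Per kb, the scale for comparing genes, the direction against all genes turned too. The medians of the 8 were 359.1 in iMNs and 332.5 in i3Ns, against 327.3 and 286.4 over all genes with a reference transcript. The median percentile per kb was 52.5 in iMNs and 53.3 in i3Ns, and 6 of the 8 lay above the middle in iMNs and 5 in i3Ns. With the reference transcript as length, the RNAs of the U11/U12 proteins thus sat near the middle of those of these neurons. Their place among all genes was not taken with the longest transcript or the union of exons, which lower the level per kb of several of them.

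**Figure D2:**
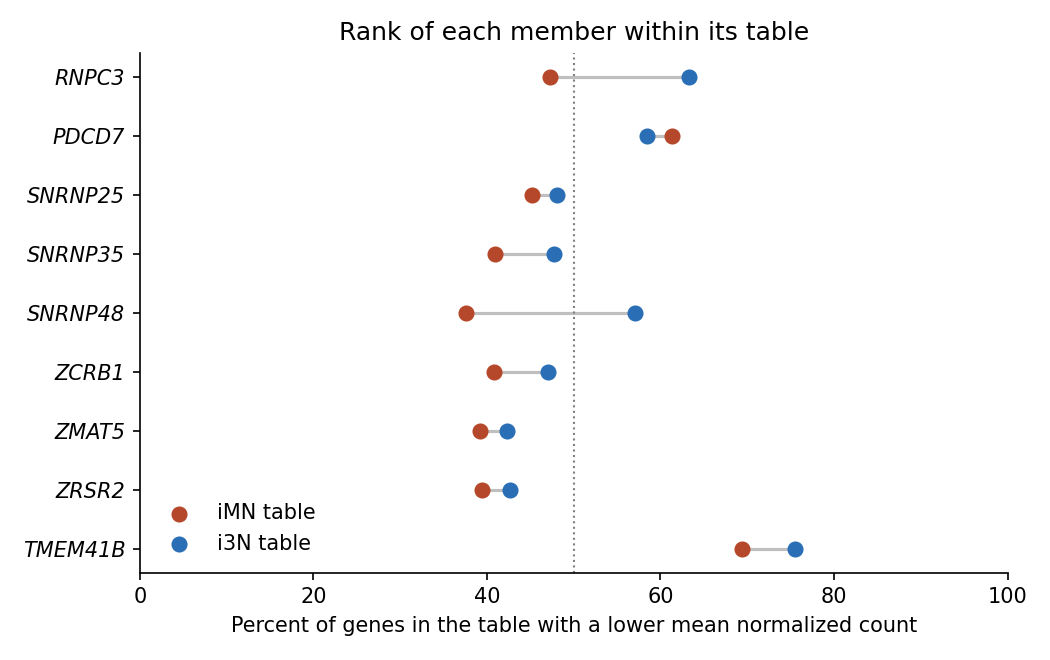
Each of the 9 genes by the percent of genes in its table with a lower mean normalized count, with the iMN table in red, the i3N table in blue and the middle of the table as a dotted line. *TMEM41B* lies farthest right in both tables, and *SNRNP48* and *RNPC3* have the longest gap between their points.

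Proteins that hold the di-snRNP together came first in the description. *RNPC3*, the 65K protein that binds U12 snRNA, had a mean normalized count of 760.4 in iMNs and 1248 in i3Ns. *PDCD7*, the 59K protein that bridges *RNPC3* to the U11 side (ENSG00000090470, chromosome 15 from 65117379 to 65133808, minus strand), had 1455 in iMNs and 958.9 in i3Ns. Per kb of the reference transcript, *PDCD7* had the higher level in iMNs (515.5 against 354.6) and *RNPC3* in i3Ns (581.9 against 339.7). In i3Ns this order rests on the length taken, since the levels were 339.7 for *PDCD7* and 341.1 for *RNPC3* with the longest transcript, and 296.4 and 181.7 with the union of exons.

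The proteins of the U11 snRNP differed in level per kb. *SNRNP25*, the 25K protein (ENSG00000161981, chromosome 16 from 53828 to 57669, plus strand), had 626.1 per kb in iMNs, the highest of the 9, and 466.9 in i3Ns. With the union of exons as length it had 303.5 per kb in iMNs and a rank of 3 of 9. *SNRNP35*, the 35K counterpart of the U1 protein *SNRNP70* (ENSG00000184209, chromosome 12 from 123458088 to 123473154, plus strand), had 363.6 per kb in iMNs and 334.6 in i3Ns. *SNRNP48*, the 48K protein that contacts the 5′ splice site, had the lowest level per kb in both tables, 103.1 in iMNs and 211.7 in i3Ns. Its reference transcript is the longest of the 9, with 4174 bases, and with the union of annotated exons as length its rank was 7 of 9 in iMNs and 5 of 9 in i3Ns. The smallest difference between the tables within this group was that of *SNRNP35*.

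The remaining proteins are zinc finger proteins. *ZCRB1*, the 31K protein with an RNA recognition motif (ENSG00000139168, chromosome 12 from 42312086 to 42326257, minus strand), had 296.3 per kb in iMNs and 261.9 in i3Ns. *ZMAT5*, the 20K protein (ENSG00000100319, chromosome 22 from 29730956 to 29767011, minus strand), had 508.2 per kb in iMNs and 330.3 in i3Ns. *ZRSR2*, which recognises the 3′ splice site of U12-type introns (ENSG00000169249, chromosome X from 15790156 to 15830694, plus strand), had 330.1 per kb in iMNs and 216.8 in i3Ns. The mean normalized counts of *ZMAT5* and *ZRSR2* were close to each other in both tables, 480.3 and 488.3 in iMNs and 312.1 and 320.6 in i3Ns. With the spread between libraries unknown, it cannot be said which neighbours in the order per kb differ.

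The level per kb depends on the transcript length taken. With the longest annotated transcript in place of the reference transcript, the level per kb fell by more than 1.5 times for *RNPC3*, *ZCRB1*, *ZMAT5* and *ZRSR2* in both tables. That of *ZRSR2* became 90.7 in iMNs and 59.5 in i3Ns, the lowest of the 9. *TMEM41B* stayed first in i3Ns and first or second in iMNs with all 3 lengths.

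Other parts of the spliceosome were set beside the members. The 7 other minor spliceosome proteins had a median of 186.9 per kb in iMNs and 276.6 in i3Ns, against 359.1 and 332.5 for the 8 U11/U12 proteins. With the union of exons as length this order turned, and their median was 1.25 times that of the U11/U12 proteins in iMNs and 1.36 times in i3Ns. *SCNM1* was the highest of them, with 533.5 per kb in both tables. The lowest was *RBM48* in iMNs with 109.9 per kb and *RBM41*, an RNA-binding relative of *RNPC3*, in i3Ns with 83.5. *CENATAC*, listed under its older symbol *CCDC84*, had 279.6 per kb in iMNs and 276.6 in i3Ns. The minor spliceosomal RNAs U11, U12, U4atac and U6atac were not analysed here.

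RNAs of the SF3B complex, which serves both spliceosomes, had higher levels, and the proteins themselves were not measured. Those of its 7 proteins had a median of 1457 per kb in iMNs and 1842 in i3Ns. The lowest, *PHF5A*, had 746.2 per kb in iMNs and 845.2 in i3Ns, above each of the 8 U11/U12 proteins, and *SF3B2* was the highest with 2890 and 3274. With each of the 3 lengths, the ranges of these lists did not overlap in either table. The 10 proteins of U1, U2 and U2AF, specific to the major spliceosome, had a median of 1062 per kb in iMNs and 988.9 in i3Ns. Their median was 2.96 times that of the U11/U12 proteins in iMNs and 2.97 times in i3Ns. Their lowest members, *SNRPB2* with 735.0 per kb in iMNs and *SNRPA1* with 692.6 in i3Ns, were above the highest U11/U12 protein. With the longest transcript or the union of exons as length, these ranges overlapped.

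Single counterparts followed the same order. *SNRNP70*, the U1 counterpart of *SNRNP35*, had 3006 per kb in iMNs and 3444 in i3Ns, 8.27 and 10.3 times the level of *SNRNP35*. *SNRPA* and *SNRPB2*, RNA-binding proteins of U1 and U2 whose motif resembles that of *RNPC3*, had 3.34 and 2.07 times the level of *RNPC3* in iMNs. In i3Ns the same ratios were 1.39 and 1.55, and the gap was wider with the other lengths. With the longest transcript, *RNPC3*, *SNRPA* and *SNRPB2* had 341, 806 and 902 per kb in i3Ns. With the union of exons they had 182, 438 and 834. *U2AF1*, the counterpart of *ZRSR2* at major 3′ splice sites, had 2.85 times the level of *ZRSR2* in iMNs and 3.77 times in i3Ns. *U2AF1* has a near-identical annotated copy, *U2AF1L5*, between which reads can be split, so its own value is uncertain. With both summed, the ratios were 5.47 and 10.6. With the union of exons as length and no summing, the gap was smaller. *U2AF1* and *ZRSR2* then had 80.0 and 65.2 per kb in iMNs, and 69.5 and 42.8 in i3Ns.

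**Figure D3:**
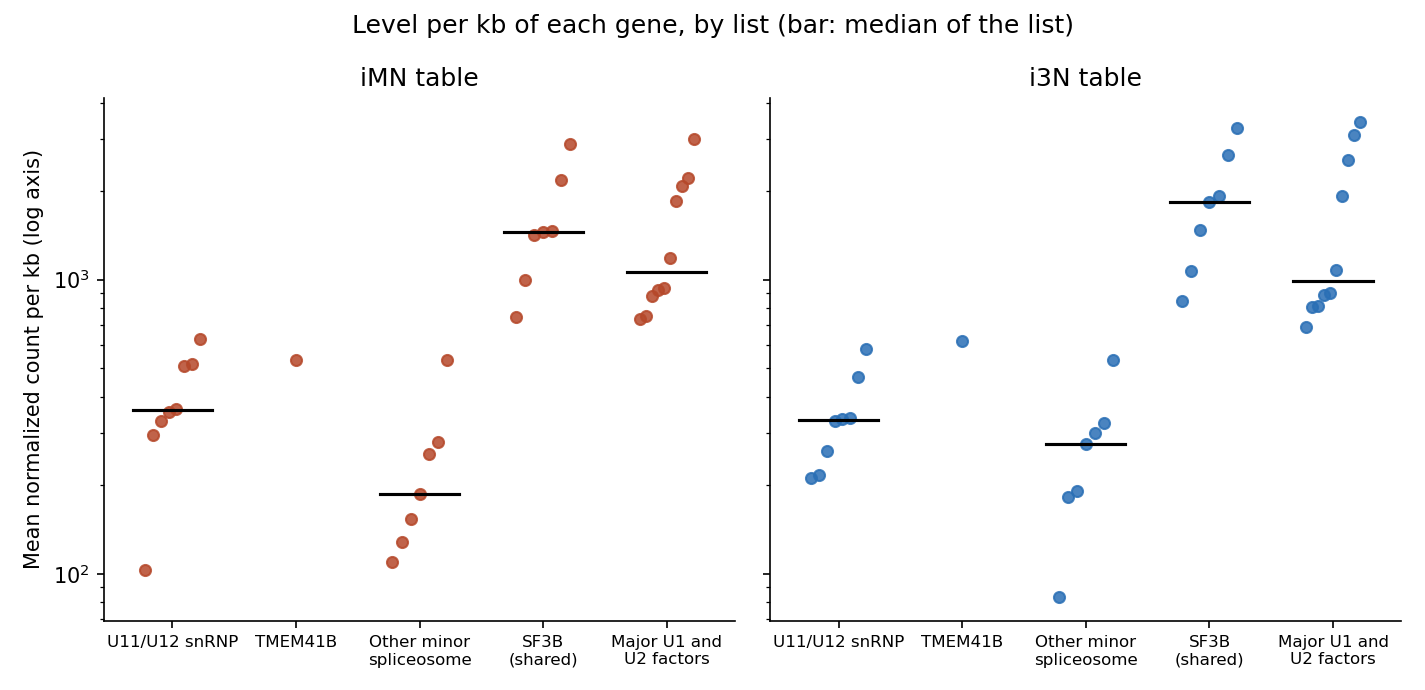
Mean normalized count per kb of the reference transcript on a log axis, 1 point per gene, for the 8 U11/U12 proteins, *TMEM41B*, 7 other minor spliceosome proteins, 7 SF3B proteins and 10 major spliceosome proteins. Bars are medians of the lists, 359.1 in iMNs and 332.5 in i3Ns for the U11/U12 proteins, and every point of the last 2 lists lies above them.

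Levels were then compared between the tables, which the authors normalized separately, so each ratio depends on a scaling. The mean normalized counts of i3Ns were divided by those of iMNs over the 16093 genes in both tables, after the sums over these genes had been made equal. On this scale 10.2% of the genes were more than 2-fold higher in i3Ns and 14.5% more than 2-fold lower, and 0 of the 9 members passed 2-fold in either direction. With no rescaling, 1 member did, *SNRNP48* with a log2 ratio of 1.04. Over all genes the quartiles of the log2 ratio were -0.53 and 0.45, and the median was 0.01.

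*SNRNP48* was nearest to the 2-fold line, with a log2 ratio of 0.98 (a level 1.98 times as high in i3Ns), and 89.6% of the genes had a lower ratio. *RNPC3* followed with 0.66, a ratio of 1.58 above that of 82.8% of the genes. The 6 other U11/U12 proteins all had log2 ratios below 0. Over all genes the median was 0.01, so nearly as many genes lay below 0 as above it. *SNRNP48* and *RNPC3* hold the tandem copies of the motif, and *TMEM41B*, which holds none, was also above 0. The tandem search was chosen after seeing the data, and a link between the copies and the ratios was not tested. *ZMAT5*, *ZRSR2* and *PDCD7* lay close together, with log2 ratios of -0.68, -0.66 and -0.66. *SNRNP25* had -0.48, *ZCRB1* -0.23 and *SNRNP35* -0.17. The median over the 8 was -0.36.

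*TMEM41B* had a log2 ratio of 0.16, above that of 58.8% of the genes and close to the median of 0.12 over the 479 genes with a U12-type intron found in both tables. Here a U12-type intron is one whose 5′ splice site matches the motif. Genes with introns but no such match, 13249 in number, had a median of 0.03. Genes with a match had a median of 409.3 per kb in iMNs and 448.0 in i3Ns, against 327.4 and 287.4 for genes with introns but no match. The spreads overlapped widely. In iMNs the quartiles were 177.7 and 893.6 with a match, against 80.6 and 819.2 without. In i3Ns they were 153.8 and 861.9 with a match, against 42.0 and 791.8 without. *RNPC3* stood above 44.2% of the genes with a U12-type intron in iMNs and above 60.9% of them in i3Ns.

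**Figure D4:**
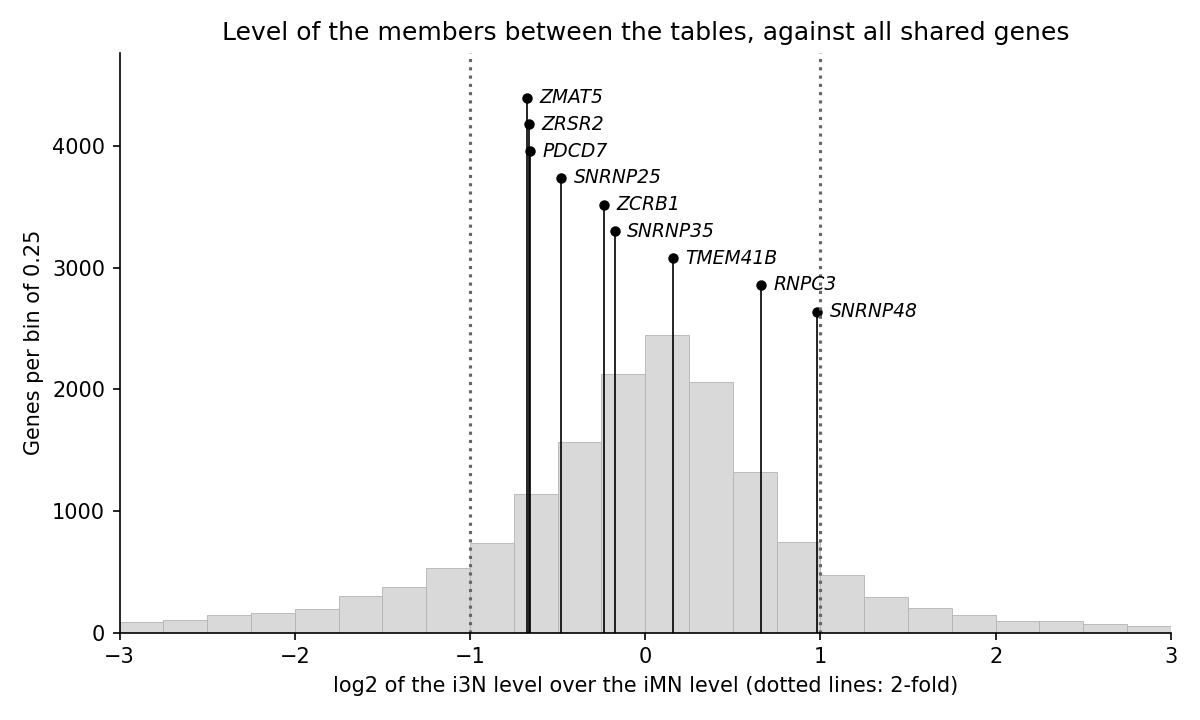
Histogram of the log2 ratio of the i3N level over the iMN level for genes in both tables, in bins of 0.25 between -3 and 3, with the 9 members as labelled lines and 2-fold as dotted lines. On this scaling all members lie between the dotted lines, *SNRNP48* next to the right one at 0.98, and with no rescaling it would lie past it at 1.04.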

How the data were processed

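RNA-seq had been made from 12 libraries, 3 SCR and 3 *SMN*-KD in each of the 2 cell types. Per the labels and methods, the authors trimmed reads with fastp, quantified transcripts with Salmon and ran DESeq2 for each cell type on hg38. Versions are not given in the sources used here. The deposited tables hold, per gene, the mean normalized count over 6 libraries, a signal pooled over both groups by the authors, and 4 columns of the authors' comparison (log2 fold change, its standard error, p-value and adjusted p-value), which were not used. An edgeR test had been planned for counts per library and was not run. The means summed to 4.33e+07 in iMNs and 4.50e+07 in i3Ns, and the lowest were 7.73 and 1.37. Which filter on low values was applied to each is not known here.

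Genes were matched by Ensembl identifier to GENCODE release 44 on GRCh38, without 693 identifiers in iMNs and 878 in i3Ns. Levels per kb used MANE Select transcripts (the reference transcripts), which 14276 and 15537 of the genes have. Splice sites were read from introns of at least 30 bases with pysam 0.24.0 under Python 3.11.15, numpy 2.4.6, pandas 2.3.3 and matplotlib 3.10.9. The motif search, ranks and ratios were tested on simulated data. The members and lists were chosen with earlier results of these data known, and the tandem search and the summing of *U2AF1* copies were chosen after seeing the data. Named genes were every member and, from each list, the highest, the lowest and the counterparts of members. Markers and *CENATAC* were named beyond these, after their values were seen. Alternatives changed the genes ranked, the length, the scaling and the motif.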

Additional observations from a re-analysis of the deposited data

How the results depend on the processing

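No paired analysis was possible because the values pool all 6 libraries of a table and come from no test, and for the same reason leaving out a replicate was not run. Over 113 alternative values, 81 stayed within 1.5 times of the reported one, 30 moved further and 2 turned direction. All 32 came from the transcript length or from summing the copies of *U2AF1*. Taking the longest transcript and then the union of exons as length, the median per kb of the major spliceosome proteins became 5.23 and 6.33 times that of the U11/U12 proteins in iMNs, and 4.49 and 6.64 times in i3Ns, against 2.96 and 2.97. For SF3B, the ratio in iMNs became 6.54 and 7.83, against 4.06, and that in i3Ns 8.52 with the union of exons, against 5.54. For the other minor spliceosome proteins, the ratio in iMNs became 0.93 and 1.25, against 0.52, and that in i3Ns 1.36 with the union of exons, against 0.83. Both values with the union of exons pass 1, so the order of these lists turned. Ranking protein-coding genes only gave median percentiles of the U11/U12 proteins of 36.1 and 40.5, and ranking genes with a mean of at least 10 gave 39.3 and 38.2, so that iMNs were no longer the lower of the pair. The median log2 ratio of these proteins was -0.37 when scaled to the median ratio and -0.30 with no rescaling, under which *SNRNP48* passed 2-fold. The motif without its last base was found in 622 genes. Tandem copies up to 30 bases apart occurred in 678 protein-coding genes and in the same number of members, 2.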
